A study of Mus musculus with 44 samples.

Results

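Of the 24987 RING1B peaks called in mouse haematopoietic progenitor cells, 7285 were at most 2000 bp wide and shared at least 1 bp with a region marked by H3K27me3. They made up 29.2% of the RING1B list, 36.1% of its 20191 peaks of that width, and 65.7% of the 11081 RING1B peaks that lay on H3K27me3 (44.3% of the list). Width and overlap chose these peaks, so neither is a result. What was not used in choosing them was where in the H3K27me3 region each peak lay, how wide and tall that region was, the height of the RING1B peak itself, and whether a PCGF1 peak lay on it. Of the short peaks on H3K27me3, 77.9% lay wholly inside a region and 22.1% crossed a border, so they are called short peaks on H3K27me3 below.

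RING1B is the ubiquitin ligase subunit of Polycomb repressive complex 1 (PRC1), which places ubiquitin on histone H2A. H3K27me3 is the trimethyl mark that the other Polycomb complex, PRC2, places on histone H3, often over broad domains of silent chromatin. Canonical PRC1 binds that mark through a CBX subunit, whereas variant forms, among them the one defined by PCGF1, lack CBX and reach chromatin by other means. In blood progenitors both complexes are known for keeping genes of other lineages and stages silent.

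The series comprised 44 chromatin immunoprecipitation or related libraries, and 3 lists of called sites were used, each made from 2 libraries. RING1B and H3K27me3 were each precipitated from IdHP cells with the genotype Pcgf1 fl/fl, in which the floxed gene was not labelled as deleted. PCGF1 was read through FLAG in IdHP cells of the genotype Pcgf1 -/- to which FLAG-PCGF1 had been added back, so its sites belong to a different cell population and to a re-expressed, tagged protein. All 3 came from cells of the B6CBAF1/J background, grown with IL7, Flt3L and SCF over a layer of TSt4 stroma and used at passages 15 to 18. IdHP is the labels' name for these cultured progenitors, and no expression values were used here that would check their identity.

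One list stood for each pair of libraries, so no spread between replicates can be given and no test across samples was made. Read depth is unknown from these lists. The 95% intervals below, exact binomial for shares, from order statistics for medians and exact Poisson for densities, cover counting error over listed sites only. Peaks are not replicates, and those in the same region are not independent, so the intervals are narrower than the spread between cultures would be. Positions are those of the mouse build mm9.

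The short peaks on H3K27me3 were low in RING1B. Their width, limited by the choice, had a median of 691 bp, with quartiles of 404 and 1141 bp. That was wider than the short peaks off H3K27me3, with a median of 550 bp, and than all short RING1B peaks, with 601 bp. Their fold, the authors' ratio of RING1B signal over background in the peak, had a median of 3.09 and quartiles of 2.97 and 3.25, and 90.1% of them lay between 2.5 and 3.5. The median −log10 q, a measure of how surely a peak was called, was 1.94, against 2.28 over the whole RING1B list. A −log10 q of at least 5 was reached by 132 peaks, or 1.81%, against 9.96% of all RING1B peaks. Among the 12906 short peaks off H3K27me3 it was reached by 9.80%, and among the 2352 RING1B peaks of 2 to 5 kb on H3K27me3 by 10.6%. Few short peaks on the mark were thus among the surest calls of the list.

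The limits of the choice separated peaks of similar height. The 143 short peaks on H3K27me3 of 1901 to 2000 bp had a median fold of 3.21, and the 155 RING1B peaks on H3K27me3 of 2001 to 2100 bp, just too wide, had 3.27. The 245 peaks sharing 100 bp or less with a region had a median fold of 3.08, and the 179 short peaks that missed a region by less than 100 bp had 3.11. The tallest peak near the width limit lay on chromosome 2 from 31495673 to 31497633, was 1961 bp wide with a fold of 4.55, and sat in a region of 43440 bp.

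The H3K27me3 regions under these peaks were broad. The median width of the region was 10780 bp (95% interval 10340 to 11230), with quartiles of 4600 and 24630 bp. Over all 135391 listed regions the median was 1840 bp, but a broad region offers more room for a peak, so the fairer comparison weighs each region by its length. A base of H3K27me3 drawn from the list lay in a region with a median width of 5960 bp, with quartiles of 2500 and 15420 bp. The region under the typical short peak was therefore 1.81 times as wide as the region that holds the typical base, and 5.86 times as wide as the typical region. These medians count a region once for each short peak it holds. Counted once each, the 5029 regions with a short peak had a median width of 7650 bp. Regions over 20 kb held 31.3% of the short peaks, against 19.5% of the H3K27me3 length and 2.02% of regions. Regions of up to 2 kb held 9.73% of them, against 19.2% of the length and 53.8% of regions.

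The regions were also tall. Height is the highest H3K27me3 signal in a region, on the authors' own scale, whose unit is not stated. Under short peaks on H3K27me3 the median height was 115 (interval 114 to 117), with quartiles of 89.1 and 148, against 68.5 over all regions and 88.5 weighted by length. Counted once each, the regions with a short peak had a median height of 106. The tallest 20% of regions, those above 89.5, held 74.6% of the short peaks and 48.7% of the H3K27me3 length. Only part of a listed region lies above the authors' cutoff on the signal, 15.9% of the length in all. In regions under short peaks the part above the cutoff had a median of 1990 bp, or 19.1% of the region, against 210 bp and 11.2% over all regions. Weighted by length, all regions gave 720 bp and 13.5%. Counted once each, the regions with a short peak gave 1220 bp and 17.7%. The plot of region width and height shows the shift over the whole range, not only at the median. RING1B peaks of 2 to 5 kb on H3K27me3 lay in regions of similar size, whose width had a median of 9755 bp (9160 to 10580) and whose height had one of 115 (112 to 118).

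**Figure D1:**
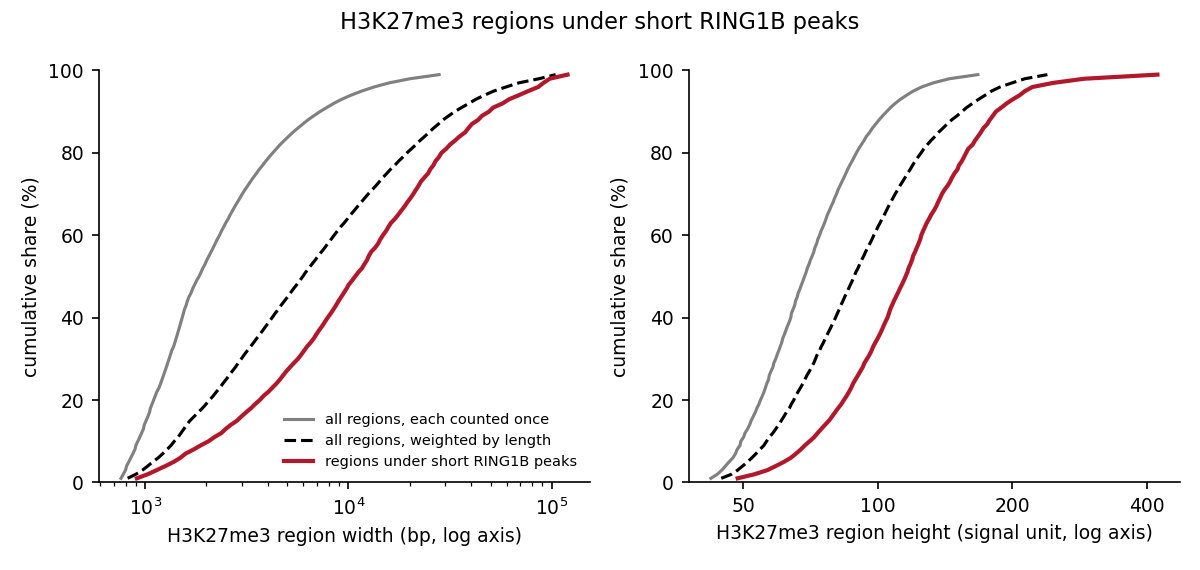
Cumulative share of sites (vertical axis, %) by H3K27me3 region width in bp (left, log axis) and height in the authors' signal unit (right, log axis), from the 1st to the 99th percentile. The red line counts the region under each short RING1B peak, the grey line each region once and the dashed line each base of H3K27me3; the red line lies to the right of both, with medians of 10780 bp and 115.

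Within their regions the short peaks lay almost evenly from border to middle. Of the 7285, 5674 were wholly inside (77.9%, 76.9 to 78.8), 1589 crossed 1 border, and 22 covered a whole region. Were every position that touches a region used equally, given these widths, 79.3% would lie wholly inside, slightly more than was observed. The centre of the peak lay inside the region in 6405 cases, and 52.3% of those centres (51.0 to 53.5) lay in the middle 50% of the region. Divided into 5 equal steps from the border to the middle, these centres split into 18.5%, 19.5%, 19.6%, 21.2% and 21.1%, where equal use gives 20% each. The distance from a peak's centre to the nearest border had a median of 2156.5 bp, negative values standing for a centre outside. It was at least 1000 bp in 65.8% of peaks and at least 5000 bp in 29.0%.

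The small tilt towards the middle was seen in the wider regions and not in the narrow ones. In regions over 20 kb the outermost step held 17.1% of centres (15.6 to 18.7) and the innermost 21.9% (20.2 to 23.6). In regions of 5 to 10 kb the same steps held 17.0% (15.0 to 19.1) and 21.5% (19.4 to 23.9). In regions of up to 2 kb they held 21.7% (17.9 to 26.0) and 17.0% (13.6 to 20.9), and in those of 2 to 5 kb 23.2% (20.6 to 25.9) and 20.2% (17.8 to 22.9), so the order was the opposite, with intervals that overlap. The difference between width classes was not tested. The share wholly inside was 28.3%, 56.6%, 79.2%, 90.0% and 96.4% from the narrowest class to the widest, where equal use of touching positions gives 33.0%, 62.8%, 80.3%, 89.6% and 95.6%. In regions of up to 2 kb (25.1 to 31.8) and of 2 to 5 kb (53.8 to 59.3) the observed interval lay below the equal-use value, so more short peaks there crossed a border than equal use would give.

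**Figure D2:**
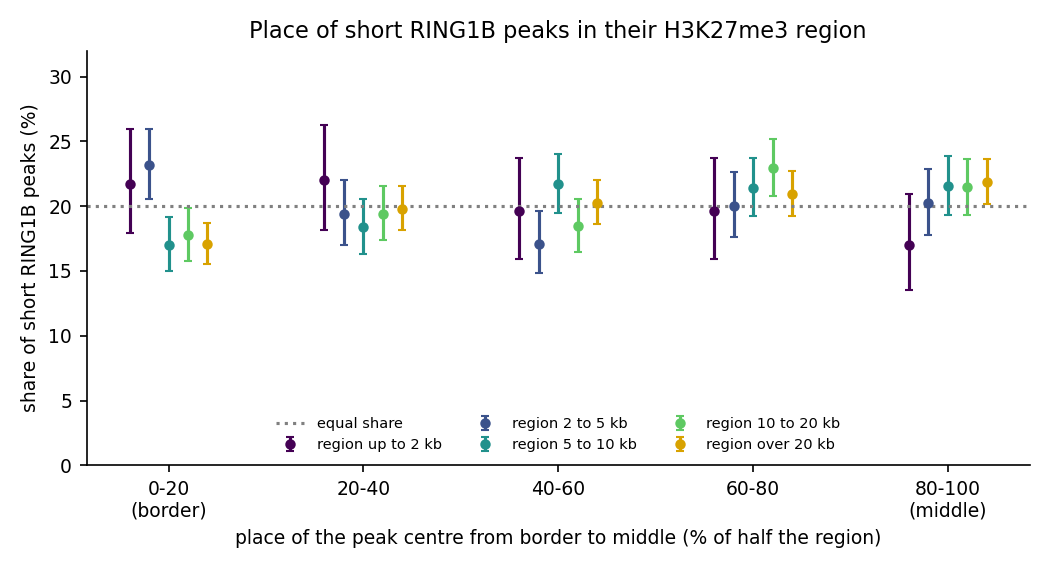
Share of short RING1B peaks whose centre is inside a region (vertical axis, %) in 5 equal steps from the border to the middle (horizontal axis), by region width, with exact 95% binomial intervals. Values lie between 17.0% and 23.2%, close to the equal share of 20% (dotted line).

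Counting short peaks per megabase of sequence at each distance from a border, on both sides, showed no rise on entering a region. Within 5 kb of the border the density rose with the width of the nearest region, and it did so outside as well as inside. For regions of up to 2 kb it was 5.47 peak centres per Mb (5.10 to 5.87) in the last 1000 bp outside and 4.72 (4.22 to 5.25) in the first 500 bp inside. For regions over 20 kb it was 25.2 (21.0 to 29.9) and 19.8 (14.9 to 25.8). The first 1000 bp inside held fewer centres per Mb than the last 1000 bp outside in all 5 width classes. The ratio ran from 0.719 (0.619 to 0.835) in regions of 5 to 10 kb to 0.858 (0.699 to 1.05) in regions of 10 to 20 kb, the only class whose interval reached 1.

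Around regions over 20 kb the density was already high at a distance. It was 13.3 per Mb (9.42 to 18.1) at 20 to 10 kb outside, 22.2 at 10 to 5 kb, 24.1 at 5 to 2 kb and 36.0 (28.5 to 44.8) at 2 to 1 kb outside, where it was highest. Inside, it fell to 16.8 (12.3 to 22.5) at 0.5 to 1 kb from the border and rose again to 25.9 (24.3 to 27.5) at 10 kb and deeper. The deep interior thus held 1.03 times (0.856 to 1.24) the density of the last 1000 bp outside. RING1B peaks over 2000 bp, which take room that a short peak cannot use, covered 8.13% of that deep interior and 5.01% of the last 1000 bp outside. With those bases left out the short peaks came to 28.2 and 26.5 per Mb. The wide peaks themselves went from 7.17 per Mb in the last 1000 bp outside to 12.2 deep inside. Listed borders lie where the authors' list puts them, beyond the part above the cutoff, and the smallest gap between 2 regions was 1510 bp.

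**Figure D3:**
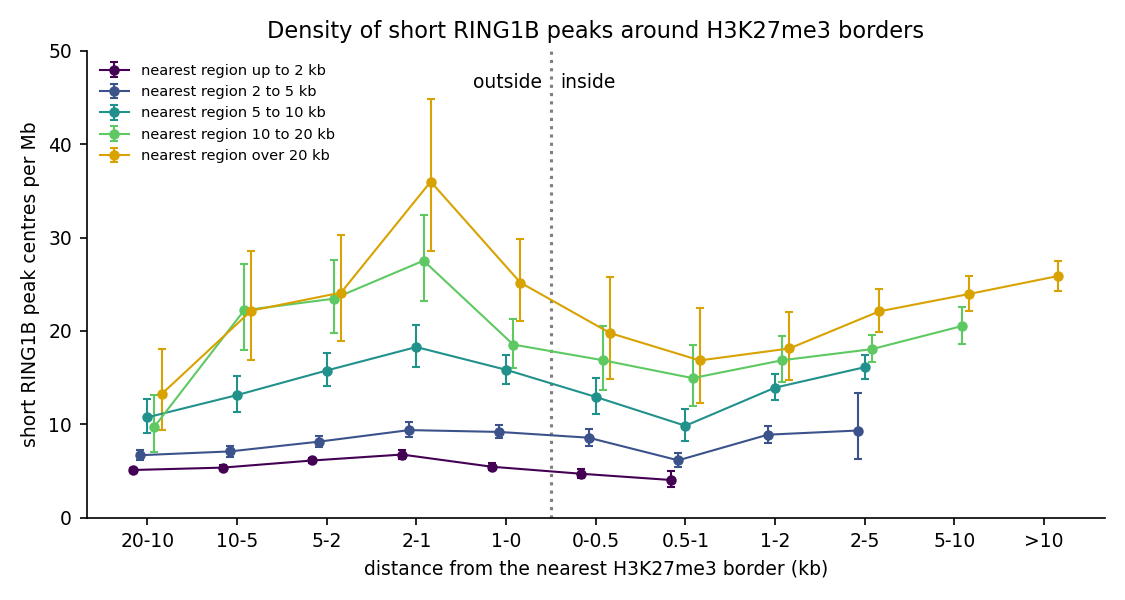
Short RING1B peak centres per Mb (vertical axis) by distance from the nearest H3K27me3 border in kb (horizontal axis, outside to the left of the dotted line and inside to the right), by width of the nearest region, with exact 95% Poisson intervals. Curves differ in level by region width on both sides of the border, and none steps up on entering the region.

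The RING1B fold of short peaks fell gently from outside to inside. Its median was 3.30 (3.27 to 3.32) at 20 to 10 kb outside, 3.12 (3.11 to 3.14) in the last 1000 bp outside and 3.10 (3.08 to 3.12) in the first 500 bp inside. From there it was nearly level, at 3.08 (3.06 to 3.09) for centres 10 kb or more inside. On H3K27me3, peaks wholly inside a region had a median fold of 3.08 (3.07 to 3.08) and those crossing a border 3.12 (3.11 to 3.14). These differences are small beside the distance between the quartiles of either set. Crossing peaks were also wider, with a median of 928 bp against 635 bp for those wholly inside. Among short peaks on the mark the median fold rose from 3.02 at 251 to 500 bp wide to 3.21 at 1501 to 2000 bp. The comparison of crossing and inside peaks was not adjusted for width.

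Height went with density more closely than position did. In the lowest 20% of regions by height there were 2.52 short peak centres per Mb of region (2.05 to 3.07). The next steps had 3.77, 5.28 and 8.09 per Mb, and the tallest 20% had 21.3 (20.7 to 21.9), which is 8.43 times the lowest (6.91 to 10.4). Tall regions tend to be broader than low ones. Regions of up to 2 kb made up 23021 of the 27115 in the lowest 20% and 5602 of the 27078 in the tallest. The same comparison was therefore made within classes of width. Among regions of up to 2 kb the density went from 2.25 to 13.2 per Mb, a ratio of 5.87 (4.24 to 8.18), and among those of 2 to 5 kb from 3.32 to 16.7, a ratio of 5.02 (3.57 to 7.26).

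Width went with density less once height was held. Regions over 20 kb held 23.8 centres per Mb and those of up to 2 kb 4.56, a ratio of 5.22 (4.70 to 5.81). Among the tallest 20% of regions alone the values were 24.1 and 13.2, a ratio of 1.82 (1.49 to 2.25). A short peak lay on 5029 of the 135391 regions (3.71%), on 0.944% of regions of up to 2 kb and on 38.2% of those over 20 kb. At like width, regions with a short peak were taller than regions with no RING1B peak. Median heights were 70.8 and 60.8 in regions of up to 2 kb, 101 and 86.7 in regions of 5 to 10 kb, and 151 and 122 in regions over 20 kb. Height is a maximum over the region and the 20% classes are wide, so regions of 1 class still differ in height. The link between the height of the mark and RING1B density is a description of the 2 lists, and its cause was not tested.

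**Figure D4:**
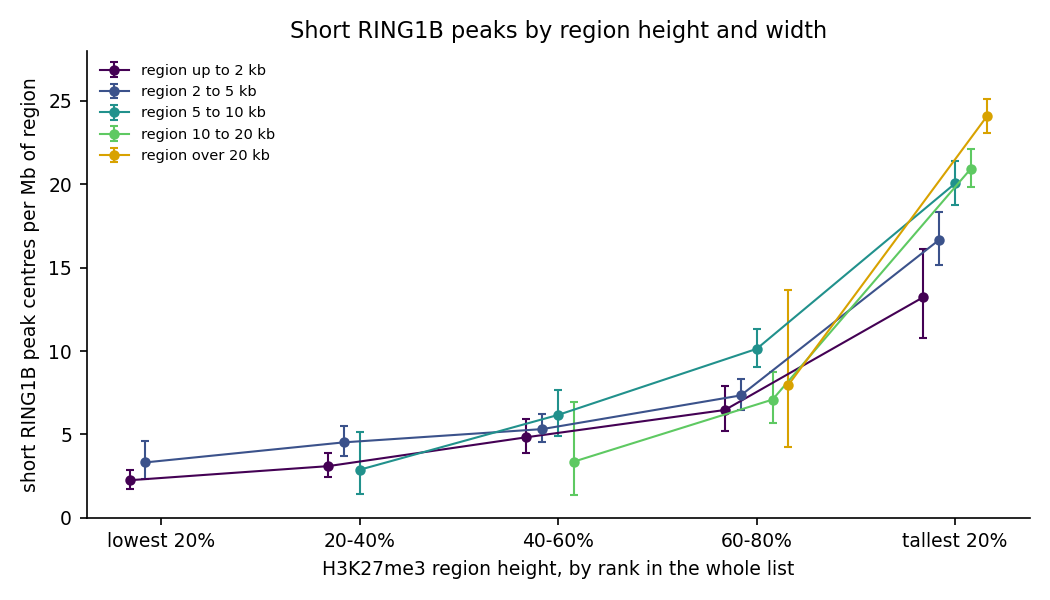
Short RING1B peak centres per Mb of region (vertical axis) by rank of region height in the whole H3K27me3 list (horizontal axis), by region width, with exact 95% Poisson intervals; classes with under 1 Mb of sequence are left out. Density rises with height in every width class drawn and lies between 13.2 and 24.1 per Mb in the tallest 20%.

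The RING1B fold changed little with the height of the region. The median fold was 3.10 in regions of height below 100, 3.09 from 100 to 150, 3.08 from 150 to 200 and 3.05 from 200 to 400. Up to a height of 400, short peaks were thus more numerous on taller H3K27me3 regions, with a nearly level fold. The limit of 2000 bp leaves out wider peaks, whose fold was higher. Listed peaks also had to pass a calling threshold that is not known, and their lowest −log10 q was 1.06. How far these 2 limits level the fold was not tested. Among short peaks on the mark the median fold rose from 3.02 at 251 to 500 bp to 3.21 at 1501 to 2000 bp. In RING1B peaks of 2 to 5 kb on H3K27me3 it was 3.40. Whether RING1B of all widths is higher on taller regions was not tested.

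More than 1 RING1B peak often lay in the same region. The region was shared with another RING1B peak for 4327 short peaks, or 59.4% (58.3 to 60.5), against 57.1% of all RING1B peaks on H3K27me3, and the other 2958 (40.6%) were the only RING1B peak of their region. Of those that shared, 1795 had other short peaks alone for company, 779 had a RING1B peak over 2000 bp alone, and 1753 had both. Region size was taken over short peaks, so a region counts once for each short peak it holds. Short peaks alone in their region had a median region width of 4880 bp and a median region height of 94.6. Those with both kinds of company had 28270 bp and 152. Of the 5029 regions with a short peak, 3737 held 1 of them and 104 held 5 or more, 681 peaks in all.

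Neighbours were close. The nearest RING1B peak lay within 2000 bp for 50.4% of short peaks on H3K27me3 (49.3 to 51.6), for 22.1% of short peaks off it (21.4 to 22.8) and for 36.6% of all RING1B peaks. The median gap was 1962 bp on H3K27me3 and 10089.5 bp off it. RING1B peaks of 2 to 5 kb on H3K27me3 were about as close to their neighbours, with 53.7% (51.6 to 55.7) within 2000 bp of another and a median gap of 1712 bp, and no 2 RING1B peaks of the list were closer than 661 bp. A RING1B peak over 2000 bp lay within 5000 bp of 31.7% of short peaks on H3K27me3, of 33.9% of RING1B peaks of 2 to 5 kb on it and of 10.1% of short peaks off it. Whether such rows are separate sites or pieces of a broad low signal cannot be told apart from the list.

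With a stricter list, fewer short peaks had company. Among short peaks on H3K27me3 with a −log10 q at or above the median of the RING1B list, 1958 in number, 35.4% shared their region with another RING1B peak of that strength, against 59.4% of all 7285. Asking for that strength also takes away possible neighbours, so the fall says nothing of sharing by strong and weak peaks.

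The 3 regions with the most short peaks show what such rows look like. On chromosome 8 a region from 126061200 to 126152230, 91030 bp wide and 586 high, held 21 short and 9 wider RING1B peaks. Its short peaks had folds from 2.78 to 3.59, lay a median of 1844 bp apart from centre to centre, and all 21 shared bases with PCGF1 peaks. This region was above the authors' cutoff over 87710 bp, nearly its whole width. On chromosome 6 a region from 52797190 to 52892350, with a height of 152, held 17 short and 10 wider peaks with a median spacing of 3388 bp, and on chromosome 2 a region from 91122970 to 91242530, with a height of 177, held 14 short and 2 wider peaks. No short peak of the latter 2 regions lay on a PCGF1 peak. Folds of the short peaks in both stayed between 2.74 and 3.55, so the short peaks of these dense rows were low in all 3 regions. Folds of the wider peaks there are not given here.

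The 3 widest regions held short peaks at densities that their counts do not set apart from the 23.8 per Mb of all regions over 20 kb. The widest, on chromosome 19 from 44656030 to 44931190, spanned 275160 bp and held 6, with no wider RING1B peak. The next, on chromosome 15 from 102746200 to 102980960, spanned 234760 bp and held 8 short and 9 wider peaks. The third, on chromosome 11 from 61323250 to 61537100, spanned 213850 bp with 7 short and 4 wider peaks. Counting centres inside, the densities were 21.8 (8.00 to 47.5), 29.8 (12.0 to 61.4) and 32.7 (13.2 to 67.4) per Mb. The short peak of highest fold in each of these regions, with folds of 4.90, 3.09 and 3.49, did not lie on a PCGF1 peak. In all regions over 20 kb PCGF1 lay on 3.77% of short peaks, so none of 3 does not set these regions apart.

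PCGF1 lay on few of the short peaks. It shared at least 1 bp with 255 of them, or 3.50% (3.09 to 3.95), against 5.85% of all RING1B peaks. Among short peaks off H3K27me3 the share was 3.57% (3.26 to 3.91), and among RING1B peaks of 2 to 5 kb on H3K27me3 it was 11.8% (10.5 to 13.2). Short peaks on and off H3K27me3 thus differed by less than their counting error, while more of the wider peaks on the mark touched PCGF1. A wider peak has more room to share 1 bp, and the shares were not adjusted for width. The median width was 3014 bp in the peaks of 2 to 5 kb and 691 bp in the short peaks on the mark. Among short peaks on H3K27me3 with a −log10 q at or above the median of the RING1B list, the share was 7.56% (6.43 to 8.82), more than 1.5 times the share in the whole set.

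The order on and off the mark was not the same in all classes of width, and the difference between classes was not tested. The share was higher off H3K27me3 at 751 to 1000 bp and above, with intervals that overlapped except in the widest class. At 1 to 250 bp and 501 to 750 bp the shares were close, 0.668% against 0.911% and 2.74% against 2.64%, on and off the mark. In the remaining class it was higher on the mark. Short peaks of 251 to 500 bp held PCGF1 in 3.32% of cases on H3K27me3 (2.51 to 4.29) and in 1.45% off it (1.11 to 1.88). Without regions of height 400 or more, the share on the mark in this class was 2.28% (1.61 to 3.13), an interval that overlaps the one off it. Those of 1501 to 2000 bp held it in 5.37% on the mark (3.98 to 7.06) and in 12.9% off it (10.6 to 15.4). The median RING1B fold was lower on H3K27me3 in all 6 width classes, from 3.12 against 3.20 in the narrowest to 3.21 against 3.39 in the widest, and the intervals of the medians did not overlap in any class. A fold of at least 4 was reached by 2.18% of short peaks on the mark and by 12.1% of those off it.

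**Figure D5:**
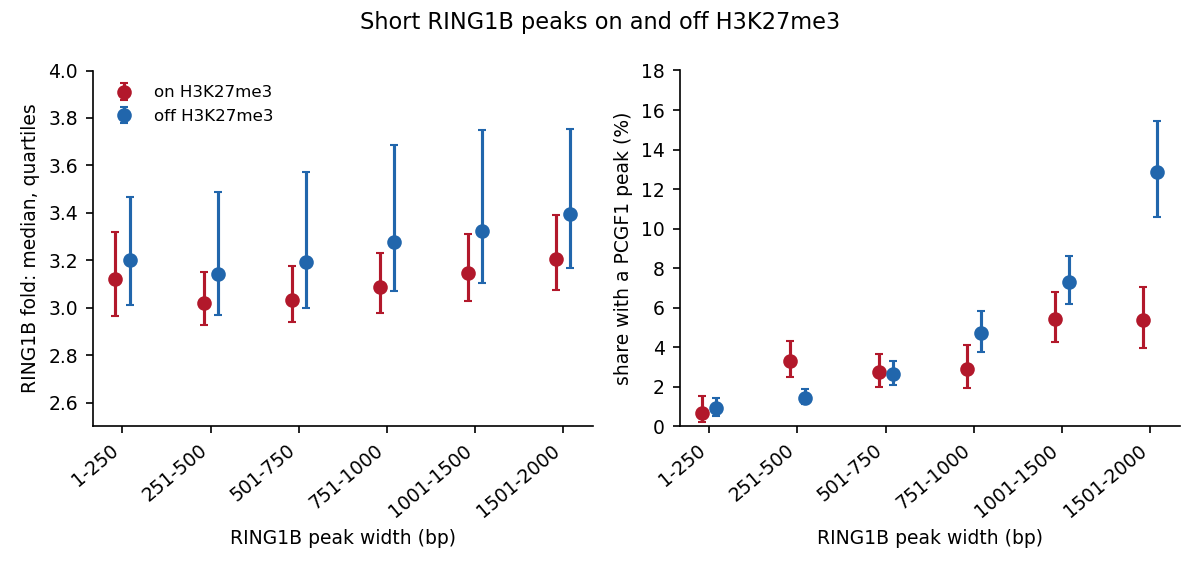
RING1B fold (left, median with quartiles; the axis starts at 2.5) and share with a PCGF1 peak in % (right, with exact 95% binomial intervals) by RING1B peak width in bp, for short peaks on H3K27me3 (red) and off it (blue). The median fold is lower on the mark in all 6 classes, and the PCGF1 share is 0.668% against 0.911% in the narrowest class, 3.32% against 1.45% at 251 to 500 bp and 5.37% against 12.9% in the widest.

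PCGF1 was found more often as the region grew taller. It lay on 1.88% of short peaks in regions of height below 100 (1.39 to 2.49), on 2.30% from 100 to 150, on 5.03% from 150 to 200 and on 7.78% from 200 to 400 (5.45 to 10.7). In regions of height 400 or more it lay on 42 of 82, or 51.2% (39.9 to 62.4), of which 21 came from the region on chromosome 8 described above. Without that region the share was 21 of 61, or 34.4% (22.7 to 47.7). By position the share differed less, at 3.51% of peaks wholly inside a region and 3.48% of those crossing a border. Crossing peaks were wider and lay on lower regions, with a median height of 88.2 against 122, and the shares were not adjusted for this.

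The PCGF1 share differed more by company than by position. These classes also differ in the width and height of their regions. The shares were not adjusted for either, and the cause was not tested. The only RING1B peak of a region lay on PCGF1 in 5.27% of cases (4.50 to 6.14), a short peak with other short peaks in 3.23% (2.46 to 4.16), and one with both kinds of company in 2.17% (1.54 to 2.96). Of the 38 PCGF1-bearing peaks in the last class, 21 came from the chromosome 8 region, and without it the share was 17 of 1732, or 0.982% (0.573 to 1.57). A short peak beside a RING1B peak over 2000 bp and no other short peak lay on PCGF1 in 3 of 779 cases, or 0.385% (0.0795 to 1.12). Without the chromosome 8 region, 3.22% of all short peaks on H3K27me3 held PCGF1.

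The 3 short peaks of highest PCGF1 fold had RING1B folds below the median of 3.09, but the whole PCGF1-bearing set did not. The 255 short peaks with PCGF1 had a median RING1B fold of 3.16 (3.12 to 3.23). The 7030 without it had 3.09 (3.08 to 3.09). Those with PCGF1 were also wider, with a median of 918 bp against 687 bp, and the folds were not adjusted for width. A peak on chromosome 17 from 26250221 to 26250998 had a PCGF1 fold of 7.40 and a RING1B fold of 2.91, in a region of 10830 bp with 3 short peaks. A peak on the X chromosome from 113400693 to 113400946 had 6.87 and 3.01, and one on chromosome 15 from 47371452 to 47371731 had 6.54 and 2.51. The last 2 had their centres 99 and 119 bp from the border of regions of 1130 and 2410 bp, with heights of 237 and 438.

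Of the 8 short peaks of highest RING1B fold, each was the only RING1B peak of its region and none lay on a PCGF1 peak. Over all short peaks on H3K27me3, 40.6% were alone in their region and 3.50% lay on PCGF1. At that PCGF1 share, none of 8 does not set these peaks apart. The highest, on chromosome 17 from 4626056 to 4626689, had a fold of 25.7 and a −log10 q of 117, in a region of 1510 bp with a height of 3323. The next, on chromosome 1 from 12634740 to 12635040, had a fold of 9.67 in a region of 2550 bp and a height of 731. A peak on chromosome 2 from 60240703 to 60241009 had a fold of 8.73 in a region of 2620 bp and a height of 884, and another on chromosome 1, from 45007956 to 45008241, had 7.51 in a region of 6900 bp and a height of 914. These 4 regions were no wider than 6900 bp and no lower than 731.

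The other 4 of the 8 lay on lower regions, with heights from 49.1 to 129.7. On chromosome 19 a peak from 39957599 to 39957910 had a fold of 9.21 and a region height of 69.5. On chromosome 3 a peak from 115655367 to 115657204, 1838 bp wide, had a fold of 7.59 in a region of 19550 bp, and one from 121072389 to 121073022 had 7.15 but shared only 12 bp with its region. The last, of fold 6.97, lay on unplaced sequence. Peaks on the tallest regions were high in RING1B but not always the highest. That on the tallest, on chromosome 9 from 88447959 to 88448245, had a fold of 4.96 under a region height of 6010. That on the next, on chromosome 5 from 114622999 to 114623284, had 5.57 under 3552. The third tallest region held the peak of fold 25.7. A fold of at least 4 was reached by 2.18% of short peaks on H3K27me3.

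The very tall regions held a mix of short peaks. In regions of height 400 or more, 15 of 82 short peaks had a fold of at least 4, or 18.3%. The share was 2.47% in regions of height below 100, 1.86% from 100 to 150, 1.44% from 150 to 200 and 1.83% from 200 to 400. Those in regions of up to 5 kb numbered 33, each alone in its region, with a median width of 299 bp and folds from 1.91 to 25.7. PCGF1 lay on 14 of these 33, against 3.50% of all short peaks on H3K27me3 and 5.85% of all RING1B peaks. The cause was not tested.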

How the data were processed

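Chromatin immunoprecipitation lists from IdHP cells were used as deposited. The submitters' processing notes name Picard, Bowtie2 and SAMtools 1.6.0, and 2 builds, dm3 and mm9, without roles. Mouse positions were taken to be on mm9. Sources used here do not give the peak caller, its threshold, its control or any pooling of libraries. RING1B and PCGF1 lists are in the broadPeak layout, whose deposited columns are a score, a fold (ratio over background) and −log10 p and q. In all RING1B peaks the deposited score equalled the −log10 q multiplied by 10 and cut to a whole number, so it was not used. The H3K27me3 list holds, per the file headers, signal values (height, total signal) and a width above a cutoff. The deposited log p of the height was not used.

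Peaks were joined by overlap of at least 1 bp in Python 3.11.15 with numpy 2.4.6, pandas 2.3.3 and scipy 1.17.1. A peak on 2 regions (2 peaks) was placed in the region sharing most bases. Distances were taken from peak centres, and densities count centres inside. In the profile around borders, 6 short peaks beyond the first or last region of a chromosome were left out. The placing of peaks was tested on 3000 simulated peaks, and all 3000 were placed as simulated. Ratios of densities have exact conditional intervals. RING1B and PCGF1 positions are 1-based, and H3K27me3 positions are as listed, in steps of 10 bp.

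The set, the classes and the sites to be named were chosen with earlier results of these data known. Sites named were the 8 highest in RING1B fold, the sites on the 3 tallest and 3 widest regions, the 3 regions with most short peaks, the 3 highest in PCGF1 fold, and the highest near the width limit. Genes and sequences were not used here, because the gene tables at hand belong to another build (GRCm38.p6). The other libraries of the series were not analysed here.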

Additional observations from a re-analysis of the deposited data

How the results depend on the processing

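Of 56 values recomputed for 7 results, 34 stayed within their interval (a count within 1.5 times) and 22 moved. With at least 50% of the RING1B peak covered by the mark, 88.6% lay wholly inside and 52.3% in the middle 50% of the region, against 77.9% and 45.9% of all 7285. Region width was then 12580 bp, height 119, and 56.8% shared their region. With a width limit of 1000 bp, 82.8% lay wholly inside and 2.65% held PCGF1. With a −log10 q at or above the list's median (2.28), 1958 peaks remained. Of these, 72.1% lay wholly inside and 43.5% in the middle, region width was 9390 bp, 7.56% held PCGF1 and 35.4% shared their region. With regions at or above the median height (68.5), the values were 81.2%, 47.4%, 12440 bp, a height of 120 (119.7) and 63.4% sharing. A PCGF1 peak within 1 kb was found for 4.26%. Of the alternatives chosen after seeing the data, leaving out regions of height 400 or more gave 2.96% with PCGF1, and regions wider than 5 kb alone gave 89.7% wholly inside and 50.5% in the middle. Autosomes alone, the tallest region touched, and leaving out the region with most short peaks moved none of the results recomputed under them. The cause of these changes was not tested, beyond that a stricter overlap removes peaks at borders and wider regions leave fewer. No paired analysis was possible because the lists carry no values per library. Unknown read depth limits every count and every width, since a shallower library gives fewer and shorter peaks.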

Other observations

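The X chromosome had few short RING1B peaks, 495 in all, and a larger share of them lay on H3K27me3 than on any autosome, 52.5% (48.0 to 57.0), followed by 45.9% (42.5 to 49.3) on chromosome 19. Per length of the mark the X nevertheless held fewer than the autosomes. There were 260, of which 223 had their centre inside, or 5.60 per Mb of region (4.88 to 6.38), against 13.9 per Mb (13.6 to 14.3) on the autosomes, a ratio of 0.401 (0.350 to 0.459). Among the tallest 20% of regions the X had 9.92 per Mb and the autosomes 22.1, a ratio of 0.449 (0.380 to 0.526). Among autosomes the density ran from 9.47 per Mb on chromosome 8 to 21.1 on chromosome 19. The median fold was 3.10 on X and 3.09 on the autosomes.

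Random and unplaced contigs held 26 of the short peaks, with a median fold of 2.76.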
